A study of Mus musculus with 36 samples.

Results

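The effect of imipramine (IMN) in Brd1+/- mice was examined in the anterior cingulate cortex (aCC) by comparing 9 libraries of IMN-treated Brd1+/- mice with 9 libraries of vehicle-treated Brd1+/- mice; the group labels alone chose these 18 of the 36 aCC libraries. All mice were female and 8 to 11 weeks old, and each library came from a punch of the right aCC of a single animal. Both Brd1+/- groups were heterozygous for a targeted deletion of loxP-flanked exons within Brd1 on the C57BL/6NTac background, so the vehicle animals carried the same allele as the treated ones. IMN was injected subcutaneously at 10 mg/kg on consecutive days, and vehicle mice received saline on the same schedule. The other 18 libraries came from litter-matched wild-type (WT) mice, 10 given IMN and 8 given vehicle, and are used here only where the response of Brd1+/- mice is set beside that of WT mice. Tail suspension, open field and forced swim tests were run over the injection days and brains were taken 1 hour after the swim, so every group, vehicle included, had been through the same tests. Behaviour in them was not equal: the paper reports less immobility in the swim and less open field activity in Brd1+/- mice given this IMN dose than in vehicle Brd1+/- mice. The part of that difference in the results below was not tested.

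IMN is a tricyclic antidepressant that blocks the serotonin and noradrenaline transporters and also binds muscarinic, histamine and adrenergic receptors. Cationic amphiphilic drugs of this class are known to accumulate in lysosomes and to disturb cholesterol trafficking, and cells answer changes of membrane cholesterol by adjusting the transcription of sterol synthesis enzymes through SREBP factors. The aCC is a limbic cortical area in which stressors such as a swim induce immediate-early genes (IEGs), transcription factors and synaptic genes that neurons switch on soon after strong activity. Brd1 itself encodes a scaffold of histone acetyltransferase complexes. The comparison asks how the transcriptome of the mutant aCC differed with the drug shortly after stress.

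The targeted gene was read first. Brd1 (ENSMUSG00000022387, protein coding, GRCm38 chr15:88687034-88734233, minus strand) ran from 13.8 to 20.9 TPM (a transcript level scaled for transcript length and library size; median 16.003) in vehicle Brd1+/- libraries and from 13.5 to 19.4 TPM (median 17.3) in IMN libraries. The means were 16.8 ± 2.72 and 16.8 ± 2.102 TPM (SD, n = 9 each), and the log2 difference was 0.01 with an adjusted p of 0.998 (limma, Benjamini-Hochberg; its sign varied between processing settings). In WT mice Brd1 ran from 22.6 to 31.9 TPM with vehicle and from 17.9 to 27.8 TPM with IMN, so all 18 Brd1+/- libraries lay below the lowest WT vehicle library, while some overlapped the WT IMN libraries.

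A single vehicle library stood apart and bears on what follows. In vehicle replicate 6 the summed level of 12 striatal projection neuron markers was 1623 TPM, against 208.6 to 289.0 TPM in the other 8 vehicle libraries and 179 to 252 TPM in IMN libraries, and 12 choroid plexus markers summed to 3966 TPM against 1.14 to 7.43 and 1.798 to 41.0 TPM. All 12 striatal and all 8 tested choroid markers lay lower with IMN (median log2 differences -0.52 and -0.41, or -0.15 and 0.08 without that library). The other libraries varied in oligodendrocyte markers (222 to 1055 TPM in the other vehicle libraries, 1691 in replicate 6, 209 to 3259 with IMN) and in meningeal fibroblast markers (25.7 to 110 and 18.2 to 196 TPM). Each library listed 24685 to 25517 genes above 0, and mitochondrial genes took 25.1% ± 1.43 (SD, n = 9) of the TPM with vehicle and 26.0% ± 1.03 with IMN. TPM values carry no read depth, so the depth behind each value is unknown, and in bulk tissue fewer cells of a type and less RNA per cell cannot be told apart.

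Across the 25572 genes tested, a mevalonate pathway enzyme fell and a pseudogene rose with IMN in Brd1+/- mice. These were the only 2 genes, or 0.00782%, with an adjusted p under 0.05 (limma on log2(TPM + 0.5), two-sided, Benjamini-Hochberg), and also the only 2 in which the 9 IMN libraries did not overlap the 9 vehicle libraries. Without vehicle replicate 6 the pseudogene alone passed (0.00391%). At an unadjusted p under 0.01, a looser mark used below to count members of gene lists and never as a call, 313 genes (1.22%) were found, 172 higher (0.673%) and 141 lower (0.551%) with IMN; at 0.05 there were 1412 (5.52%). At any p, 52.5% of genes lay higher and 47.5% lower. Leaving out vehicle replicate 6 gave 330 (1.29%; 198 higher and 132 lower, with 55.5% and 44.5% of all genes on those sides), and 229 genes were shared, which is 73.2% of the first and 69.4% of the second set. The median difference over all genes tested was 0.01 on the log2 scale.

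The gene that fell was Mvd (ENSMUSG00000006517, protein coding, GRCm38 chr8:122433601-122443422, minus strand), which encodes mevalonate diphosphate decarboxylase, an early enzyme of the cholesterol pathway. Its level ran from 13.9 to 21.8 TPM (median 17.0) in vehicle libraries and from 10.1 to 13.8 TPM (median 11.3) in IMN libraries. Every IMN library lay below every vehicle library, although the highest IMN and the lowest vehicle value were close. The mean fell from 17.3 ± 2.64 to 11.5 ± 1.19 TPM (SD, n = 9 each), to 66.6% of vehicle, a log2 difference of -0.56 ± 0.088 (SE) with an adjusted p of 0.0492 by limma. Without vehicle replicate 6 the difference was still -0.56, with an adjusted p of 0.133, so the call was lost while the size stayed. Over 12 other processing settings the adjusted p ran from 0.0104 to 0.393 and passed in 2 of them.

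The remaining sterol synthesis enzymes lay mostly on the same side. Of 21 enzymes from the first condensation of acetyl units to the last reductions, all of them tested, 19 lay lower with IMN and 6 did so at an unadjusted p under 0.01, against 47.5% and 0.551% of all genes; no enzyme lay higher at that mark. The median over the 21 was -0.17 on the log2 scale, and -0.17 as well without vehicle replicate 6, when 19 again lay lower and 5 had an unadjusted p under 0.01. Mvd was the only member that passed with adjustment. Over the 12 other settings 18 to 20 enzymes lay lower and 3 to 8 had an unadjusted p under 0.01; without IMN replicate 4 the count was 3.

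Ordered along the pathway, Hmgcs1, the cytosolic HMG-CoA synthase that feeds mevalonate production, ran from 113 to 165 TPM (median 145) with vehicle and from 90.7 to 133 TPM (median 113) with IMN. All 9 IMN libraries lay below the vehicle mean and 4 lay below the lowest vehicle library (log2 difference -0.37 ± 0.084, adjusted p = 0.488 by limma). Fdft1, squalene synthase, had medians of 68.0 and 57.7 TPM, with a log2 difference of -0.27. Downstream of squalene, Cyp51, the lanosterol demethylase, ran from 29.6 to 41.7 TPM with vehicle and from 28.3 to 36.8 TPM with IMN (-0.22), and Tm7sf2, a sterol reductase, from 16.9 to 22.8 and from 14.7 to 19.4 TPM (-0.23). Msmo1, the sterol C4-methyl oxidase, was separated best of the later enzymes: 8 of 9 IMN libraries lay below the lowest vehicle library (67.9 to 95.5 TPM, median 76.6, with vehicle; 49.3 to 79.2 TPM, median 64.0, with IMN; log2 difference -0.32 ± 0.082). The exception for Msmo1 was IMN replicate 5, which also held the highest value of Mvd, Tm7sf2 and Cyp51 among the IMN libraries. The members that lay higher were Lbr, a lamin B receptor that is also a sterol reductase (0.24, unadjusted p = 0.120), and Ebp, the sterol isomerase (0.03).

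**Figure D1:**
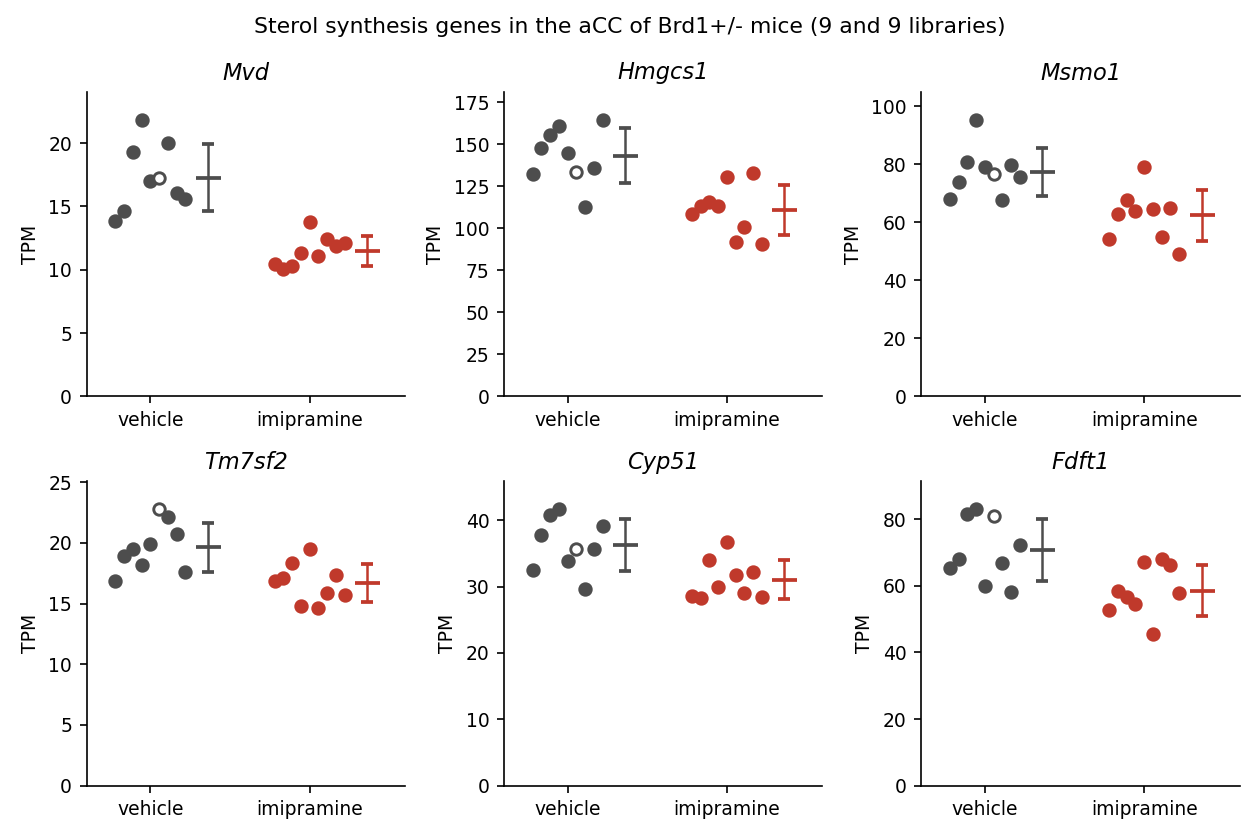
Level of the 6 sterol synthesis enzymes with an unadjusted p under 0.01, in TPM on linear axes from 0, in each aCC library of Brd1+/- mice given vehicle or imipramine. Points are libraries (9 and 9), the open circle is vehicle replicate 6, and bars are the mean ± SD; for Mvd the imipramine libraries (10.1 to 13.8 TPM) all sit below the vehicle libraries (13.9 to 21.8 TPM), whereas the other 5 enzymes overlap.

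The surrounding regulators were spread to both sides. Of 23 genes for sterol sensing, uptake and efflux, 11 lay lower and 12 higher, with a median of 0.00. The exception at an unadjusted p under 0.01 was Srebf2, which encodes the transcription factor SREBP2 that drives the enzymes above, with 69.6 to 90.2 TPM (median 80.6) with vehicle and 63.6 to 81.3 TPM (median 70.9) with IMN (log2 difference -0.19, unadjusted p = 0.0056; -0.17 and 0.0127 without vehicle replicate 6). Insig1, which retains SREBP in the endoplasmic reticulum and is itself an SREBP target, differed by 0.02. Without vehicle replicate 6 Srebf1, the lipogenic relative of Srebf2, lay higher by 0.49 (unadjusted p = 0.0016). None of 13 fatty acid synthesis genes and none of 32 lysosomal genes had an unadjusted p under 0.01. The share over all genes was 1.22%, at which lists of these sizes can hold no such member.

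The promoters of Mvd and Hmgcs1, the 2 sterol enzymes of smallest p, are shown because most of the list lay on the same side, and SREBP-driven promoters are known to pair sterol elements with CCAAT boxes. Below are the 250 bases before the RefSeq start site (GRCm38.p6; Mvd chr8:122443423-122443672, minus strand; Hmgcs1 chr13:119690101-119690350, plus strand), 5′ to 3′. Capitals mark matches on either strand to CCAAT, to TGACG, which is one side of the palindromic cAMP element, or to TCACNCCAC, a core of the sterol element, none of which overlap here.
Mvd: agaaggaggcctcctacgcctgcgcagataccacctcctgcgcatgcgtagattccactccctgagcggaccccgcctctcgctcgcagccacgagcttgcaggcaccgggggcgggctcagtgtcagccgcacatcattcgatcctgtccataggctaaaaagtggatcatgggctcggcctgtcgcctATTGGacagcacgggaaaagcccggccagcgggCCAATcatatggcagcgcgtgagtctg
Hmgcs1: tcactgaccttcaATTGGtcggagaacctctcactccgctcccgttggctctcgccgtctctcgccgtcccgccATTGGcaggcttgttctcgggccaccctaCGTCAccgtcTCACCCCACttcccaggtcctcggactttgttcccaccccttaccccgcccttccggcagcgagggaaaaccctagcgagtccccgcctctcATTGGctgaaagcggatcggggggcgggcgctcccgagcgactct
The Mvd stretch held 2 CCAAT matches and no TCACNCCAC match, and the Hmgcs1 stretch held 3 CCAAT matches, 1 TGACG match and 1 TCACNCCAC match. Of the 21 enzymes, 16 had a RefSeq window of 250 bases before to 50 after the start; 15 of those held CCAAT, against 41.1% of 27025 genes with a window, and 1 (Hmgcs1) held TCACNCCAC, against 1.44%. CCAAT was also frequent in other lists, in 14 of 17 clock genes and 20 of 25 stress response and unfolded protein genes with a window. It was held by 18 of 57 ribosomal protein genes and 3 of 13 glutamate receptor genes. These are matches of letters, no factor binding was measured, and a link to the values with IMN was not tested.

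IEG transcripts also lay mostly lower with IMN. Of 23 IEG transcription factors, 19 lay lower and 5 did so at an unadjusted p under 0.01 (Npas4, Egr1, Fos, Klf10 and Nr4a1), against 47.5% and 0.551% of all genes; none lay higher at that mark and none passed with adjustment. The median over the 23 was -0.28 on the log2 scale and -0.26 without vehicle replicate 6, when 6 had an unadjusted p under 0.01, against 0.516% of all genes. Of 33 activity-induced effector and feedback genes 23 lay lower, 5 of them at an unadjusted p under 0.01 (Arc, Nptx2, Dusp14, Trib1 and Homer1), with a median of -0.19 (-0.18 and 4 without vehicle replicate 6). Over the 12 other settings 3 to 7 factors and 5 to 9 effectors had an unadjusted p under 0.01 in the lower direction, and leaving out a single library gave 3 to 7 and 3 to 8.

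Npas4, a neuron-specific factor that responds to calcium influx, ran from 23.9 to 63.3 TPM (median 31.3) with vehicle and from 11.4 to 29.4 TPM (median 18.3) with IMN. In 8 of 9 IMN libraries it lay below the lowest vehicle library, and its IMN mean was 51.8% of the vehicle mean (log2 difference -0.90 ± 0.204, adjusted p = 0.488 by limma). Egr1, a zinc finger IEG widely used as an activity marker, ran from 236 to 437 TPM (median 312) with vehicle and from 95.5 to 340 TPM (median 187) with IMN. Again 8 of 9 IMN libraries lay below the lowest vehicle library, with IMN replicate 7 the exception (-0.78 ± 0.186, adjusted p = 0.488). Fos, the AP-1 subunit, had a smaller difference: 42.7 to 77.4 TPM (median 59.5) with vehicle and 35.9 to 58.8 TPM (median 42.9) with IMN (-0.40, unadjusted p = 0.0032). Nr4a1, an orphan nuclear receptor, lay between 140 and 239 TPM with vehicle and between 95.1 and 190 TPM with IMN (-0.39). Egr2 and Fosb, relatives of Egr1 and Fos, differed by -1.18 and -0.68 with unadjusted p of 0.018 and 0.016. Jun went the other way, by 0.31 (unadjusted p = 0.071).

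Among effectors, Arc, which regulates glutamate receptor endocytosis at synapses, ran from 153 to 389 TPM (median 277) with vehicle and from 116 to 269 TPM (median 133) with IMN. In 6 IMN libraries it lay under the lowest vehicle library and in the other 3, replicates 5, 7 and 9, it lay within the vehicle range (-0.81 ± 0.199, adjusted p = 0.488 by limma). Nptx2, a secreted pentraxin that clusters AMPA receptors, ran from 62.4 to 125 TPM (median 93.2) with vehicle and from 30.9 to 79.9 TPM (median 61.8) with IMN (-0.62, unadjusted p = 0.00089). Dusp14, a phosphatase that acts on MAP kinases, had medians of 118 and 85.4 TPM (-0.53), and Homer1, a postsynaptic scaffold with an activity-induced short form, medians of 154 and 119 TPM (-0.40). Bdnf, the neurotrophin induced by activity, differed by -0.49 with an unadjusted p of 0.029. Of 35 genes of cAMP and CREB signalling, the machinery upstream of many IEGs, 0 had an unadjusted p under 0.01, against 1.22% of all genes, a share under which a list of this size need hold no such gene.

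**Figure D2:**
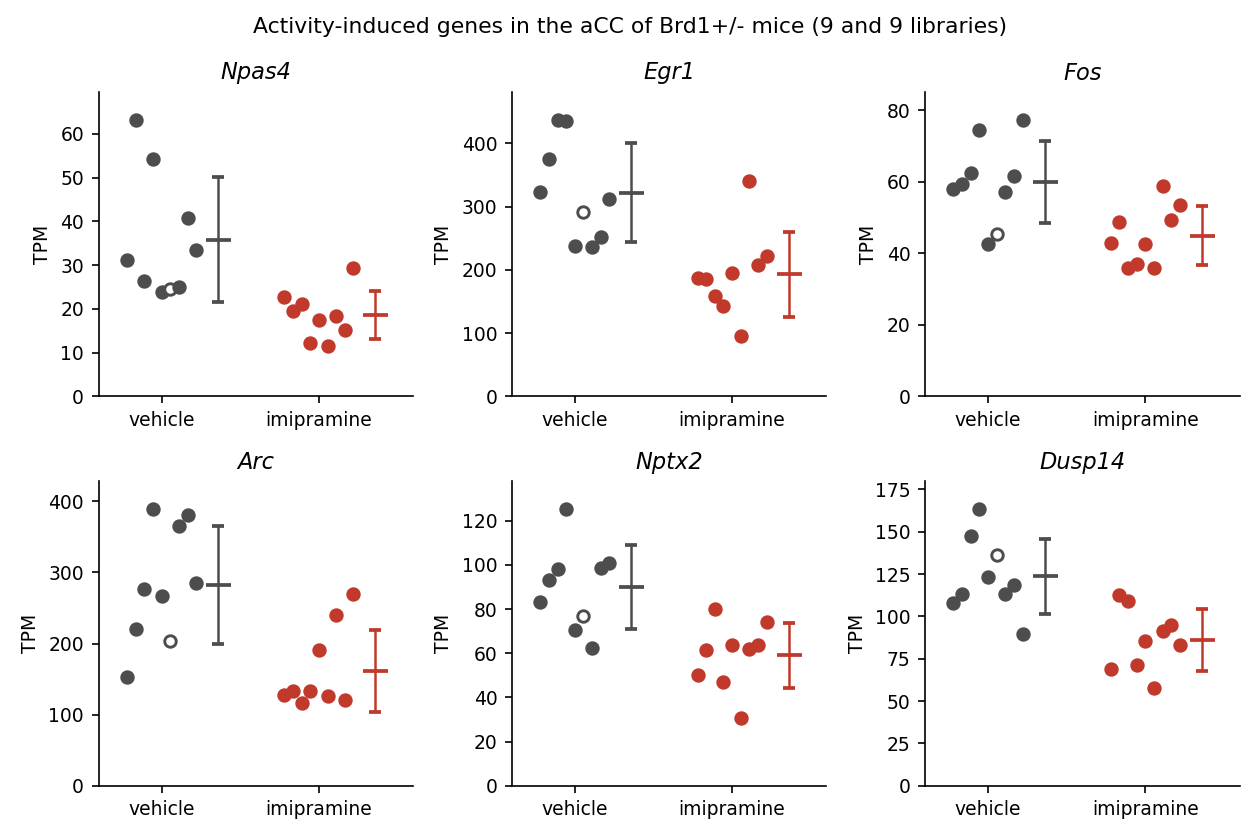
Level of 6 activity-induced genes, in TPM on linear axes from 0, in each aCC library of Brd1+/- mice given vehicle or imipramine. Points are libraries (9 and 9), the open circle is vehicle replicate 6, and bars are the mean ± SD; for Npas4 and Egr1, 8 of 9 imipramine libraries sit below the lowest vehicle library, and the groups overlap for all 6 genes.

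Library composition differed alongside these genes. IMN replicate 6 held the lowest value of Npas4, Egr1, Nptx2, Klf10 and Homer1 and the highest oligodendrocyte marker sum of the 18 libraries, 3259 TPM. All 10 oligodendrocyte markers lay higher with IMN, with a median of 0.16 (0.33 without vehicle replicate 6). With striatal and oligodendrocyte marker scores as covariates, Npas4 differed by -0.88, Egr1 by -0.68, Arc by -0.90 and Nptx2 by -0.53, with 3 factors and 5 effectors at an unadjusted p under 0.01 in the lower direction. Without IMN replicate 6 these counts were 4 and 4, and the count for the sterol enzymes was 5 in place of 6.

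The upstream stretches of Npas4 and Fos are shown since both genes are known to respond to calcium signals, and TGACG is part of the element bound by CREB, a factor that such signals activate (RefSeq, GRCm38.p6; Npas4 chr19:4989972-4990221, minus strand; Fos chr12:85473640-85473889, plus strand). Capitals mark TGACG on either strand.
Npas4: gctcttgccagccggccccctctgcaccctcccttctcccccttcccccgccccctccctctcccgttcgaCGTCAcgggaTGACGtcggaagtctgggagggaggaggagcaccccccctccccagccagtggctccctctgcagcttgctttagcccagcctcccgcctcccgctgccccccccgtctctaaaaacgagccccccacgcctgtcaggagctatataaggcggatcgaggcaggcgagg
Fos: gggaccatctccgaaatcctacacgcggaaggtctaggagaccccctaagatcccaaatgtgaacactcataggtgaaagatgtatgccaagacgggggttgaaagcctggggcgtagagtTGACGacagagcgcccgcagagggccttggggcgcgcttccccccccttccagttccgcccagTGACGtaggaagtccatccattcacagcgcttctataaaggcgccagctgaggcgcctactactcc
Both stretches held 2 TGACG matches, and neither held the full TGACGTCA palindrome. Of the 18 IEG factors with a RefSeq window 14 held TGACG, against 23.0% of all genes with a window, and of 24 effectors 15 did, 6 of them with the full palindrome against 2.03%. In other lists 10 of 15 heat-shock and cold-inducible, 29 of 57 ribosomal protein and 1 of 11 serotonin receptor genes held TGACG. The IEG and effector lists hold genes known to respond to activity, so these shares do not bear on IMN. No factor binding was measured.

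On the other side, the gene that rose was Gm8170 (ENSMUSG00000112381), a processed pseudogene at GRCm38 chr10:82020551-82021495, plus strand. It ran from 0.360 to 0.733 TPM (median 0.474) with vehicle and from 0.825 to 1.501 TPM (median 1.18) with IMN, without overlap, and its highest vehicle value was that of replicate 6. The log2 difference was 0.70 ± 0.107 with an adjusted p of 0.0492 by limma, and 0.74 with an adjusted p of 0.0452 without that library. Gm8170 passed in 4 of the 12 other settings, with adjusted p from 0.0349 to 0.731, and when single libraries were left out it passed only without vehicle replicate 6 (0.0452 to 0.163). Its levels are low, and a processed pseudogene can share short reads with copies of its parent gene, so the source of these reads is uncertain.

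The protein-coding genes that lay highest with IMN had adjusted p of 0.430 to 0.488. Selenop, the secreted selenium carrier, was the most abundant of them, at 164 to 262 TPM (median 206) with vehicle and 252 to 378 TPM (median 298) with IMN. In 7 of 9 IMN libraries it lay above the highest vehicle library and in the remaining 2 just under it (0.49 ± 0.099). Galnt15, a glycosyltransferase of mucin-type O-glycosylation, went from a median of 1.03 to 1.83 TPM (0.70 ± 0.148), with a single vehicle library in the IMN range. Mef2c, a neuronal transcription factor that restrains excitatory synapse number, had the largest log2 difference of the 10, from 31.9 to 140 TPM (median 114) with vehicle and from 128 to 333 TPM (median 212) with IMN (1.17 ± 0.256), and its lowest value, in vehicle replicate 7, stood apart from the other vehicle libraries. Slco4a1, an organic anion transporter, and Acer2, a Golgi ceramidase, had medians of 1.63 and 4.23 TPM with vehicle and 3.54 and 7.14 TPM with IMN. Timp4, an inhibitor of matrix metalloproteinases (0.44), Ppcs, an enzyme of coenzyme A synthesis (0.46), and Pecr, a peroxisomal enoyl-CoA reductase (0.56), lay above the vehicle mean in all 9 IMN libraries.

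Of the 10 genes at this end, Sult1a1 and Ddit4 belong to a list of 24 glucocorticoid receptors and responsive genes. In that list 19 lay higher with IMN, 3 of them at an unadjusted p under 0.01 (Sult1a1, Ddit4 and Fam107a), against 52.5% and 0.673% of all genes, and the median was 0.14. Without vehicle replicate 6 the count was 6, with Plin4, Nfkbia and Tsc22d3 added, and the median 0.20. In that fit 0.774% of all genes lay higher at this mark, and 55.5% lay higher at any p. Sult1a1, a phenol sulfotransferase, ran from 5.65 to 12.4 TPM (median 8.12) with vehicle and from 11.0 to 20.7 TPM (median 13.1) with IMN (0.72 ± 0.165). Ddit4, an inhibitor of mTORC1 induced by stress hormones, ran from 14.7 to 30.6 TPM (median 19.2) with vehicle and from 20.6 to 35.0 TPM (median 29.0) with IMN. The highest vehicle value of Ddit4 was that of replicate 6, and without it the difference went from 0.52 to 0.60 (unadjusted p = 2.2e-05). Fam107a, a stress-induced actin-binding protein, lay between 211 and 371 TPM with vehicle and between 286 and 408 TPM with IMN (0.34). Fkbp5, a known target and co-chaperone of the receptor, was not at that mark and differed by 0.14 (unadjusted p = 0.383 by limma). Nor was Sgk1, a kinase and known target, which differed by 0.31 (unadjusted p = 0.262). The receptor gene Nr3c1 itself differed by -0.14.

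**Figure D3:**
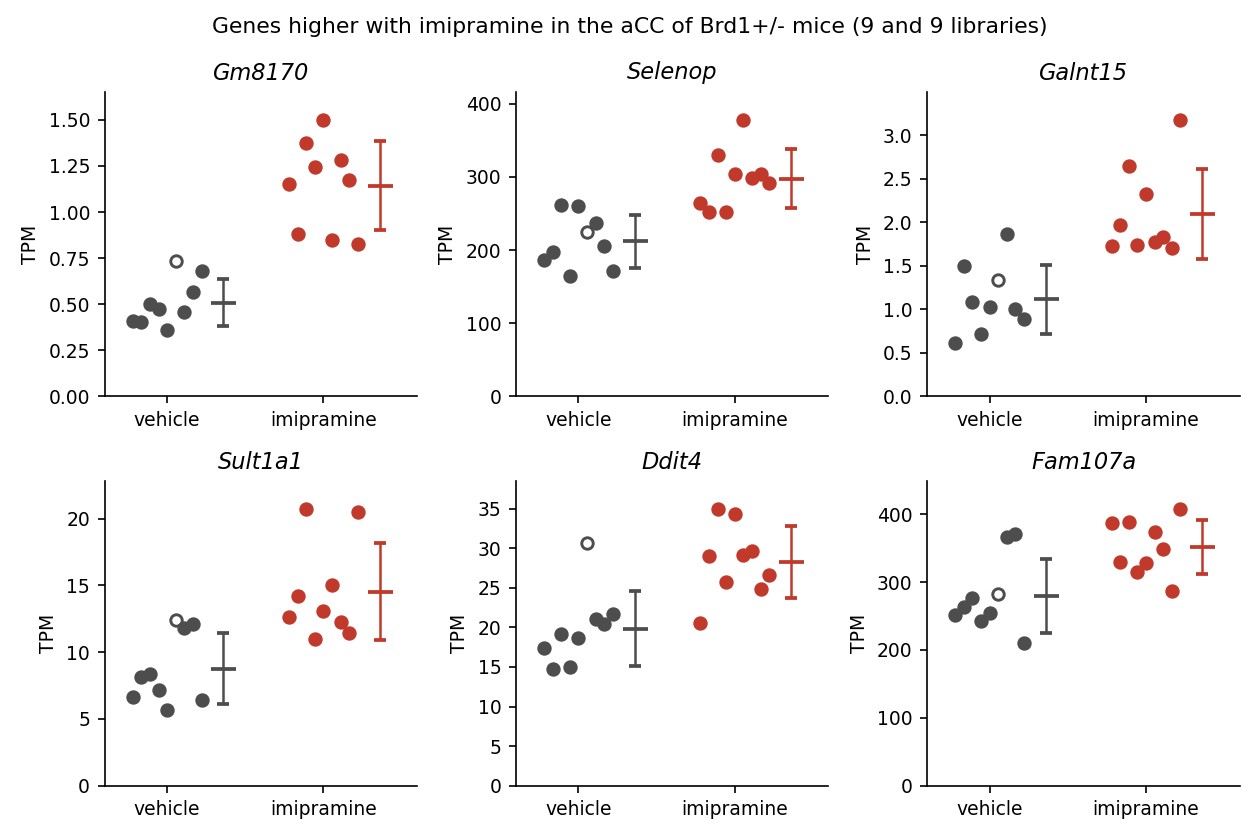
Level of 6 genes that lay higher with imipramine, in TPM on linear axes from 0, in each aCC library of Brd1+/- mice given vehicle or imipramine. Points are libraries (9 and 9), the open circle is vehicle replicate 6, and bars are the mean ± SD; the groups are separate for Gm8170 (0.360 to 0.733 and 0.825 to 1.501 TPM) and overlap for the other 5.

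Other genes that lay lower with IMN came from several functions. Phf21b, a PHD finger protein, had an IMN mean at 52.3% of vehicle (median 24.5 and 13.3 TPM; log2 difference -0.95 ± 0.215). Gm527, a gene of unknown function, differed by -0.68, P4ha1, a collagen prolyl hydroxylase, by -0.35 and Rrp9, a subunit of the U3 ribonucleoprotein of rRNA processing, by -0.29, all with adjusted p of 0.488 by limma. In each of these 4 genes all 9 IMN libraries lay below the vehicle mean.

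Chaperones of the endoplasmic reticulum were next. Of 27 genes of the integrated stress response and unfolded protein response 21 lay lower, 3 at an unadjusted p under 0.01 (Sdf2l1, Pdia4 and Hspa5), against 47.5% and 0.551% of all genes, with a median of -0.06. Hspa5, the chief luminal chaperone, ran from 122 to 203 TPM (median 150) with vehicle and from 76.8 to 159 TPM (median 114) with IMN (-0.38), and Sdf2l1, a component of its complex, had medians of 11.4 and 7.38 TPM (-0.69). Without vehicle replicate 6, the highest library for Hspa5, 16 of the 27 lay lower and Sdf2l1 alone kept an unadjusted p under 0.01; leaving out other single libraries gave 1 to 8. Atf4 and Asns, at the core of the integrated stress response, differed by 0.02 and 0.03. Of 20 heat-shock and cold-inducible genes, Hsph1 (136 to 174 TPM with vehicle, 116 to 169 with IMN; -0.27, unadjusted p = 0.00093) and Hspa8 (-0.18) had an unadjusted p under 0.01 in the lower direction, against 0.551% of all genes; the count was 1 without vehicle replicate 6.

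Transporters and receptors that the drug binds, and other genes of monoamine handling and dopamine reception, were examined as lists. The noradrenaline transporter gene Slc6a2 reached 0.049 TPM at most, and the serotonin and dopamine transporter genes Slc6a4 and Slc6a3 were listed at 0 in all 18 libraries (the cell bodies that make these transcripts are known to lie in the brainstem and midbrain). Slc18a2, the vesicular monoamine transporter, ran from 2.31 to 5.28 TPM (median 3.57) with vehicle and from 2.14 to 2.98 TPM (median 2.43) with IMN (-0.43, unadjusted p = 0.0015). Its highest value was that of vehicle replicate 6, and without it the difference was -0.36 (unadjusted p = 0.0027). Maoa and Maob, which degrade monoamines, differed by -0.01 and -0.15. None of 13 serotonin, 9 adrenergic, 7 muscarinic and histamine or 4 dopamine receptor genes tested had an unadjusted p under 0.01. With 1.22% of all genes at that mark, lists of these sizes can hold no such member. Htr5a and Htr2a, among the more abundant serotonin receptors, differed by 0.08 and -0.14. Adrb1, the beta-1 adrenergic receptor, ran from 18.5 to 27.7 TPM with vehicle and from 15.3 to 23.7 TPM with IMN (-0.25, unadjusted p = 0.0164; -0.29 and 0.0051 without vehicle replicate 6).

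Drd2, the D2 dopamine receptor, was set by a single library. It measured 34.7 TPM in vehicle replicate 6, at most 1.96 TPM in the other 8 vehicle libraries and 0.191 to 0.989 TPM with IMN, so the log2 difference of -0.79 became -0.26 (unadjusted p = 0.272) without that library. Of the other genes that the study singled out, Slc25a35, a mitochondrial carrier, ran from 3.74 to 5.05 TPM (median 4.63) with vehicle and from 4.49 to 7.38 TPM (median 5.67) with IMN. In 7 of 9 IMN libraries it exceeded the highest vehicle library (0.37 ± 0.104, adjusted p = 0.605 by limma). Kcnd2, a potassium channel subunit, differed by -0.05 with overlapping ranges.

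The remaining lists are given by their counts, beside the 1.22% of all genes at an unadjusted p under 0.01, a share at which lists of these sizes can hold no such member. None of 12 genes of the BRPF scaffolds and their acetyltransferase partners, 11 histone deacetylases, 19 clock genes, 22 glutamate and 13 GABA-A receptor subunits, 36 complex I subunits, 78 ribosomal proteins or 22 interferon-stimulated genes had an unadjusted p under 0.01. Of the 13 mitochondrially encoded protein genes 11 lay higher, by a median of 0.05, against 52.5% of all genes, and none had an unadjusted p under 0.01. After quantile normalization 7 lay higher, with a median of 0.014. Among 24 feedback genes of insulin and TGF-beta signalling, Pmepa1, an inhibitor of TGF-beta signalling, was the one at this mark (28.7 to 52.6 TPM with vehicle, 20.7 to 31.5 with IMN; -0.41, unadjusted p = 0.0014). Meningeal fibroblast markers lay higher in 9 of 9 tested (median 0.49, and 0.50 without vehicle replicate 6) and microglial markers lower in 7 of 7 (median -0.03); the part of any of these cell types in the results above was not tested beyond the covariate values given.

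**Figure D4:**
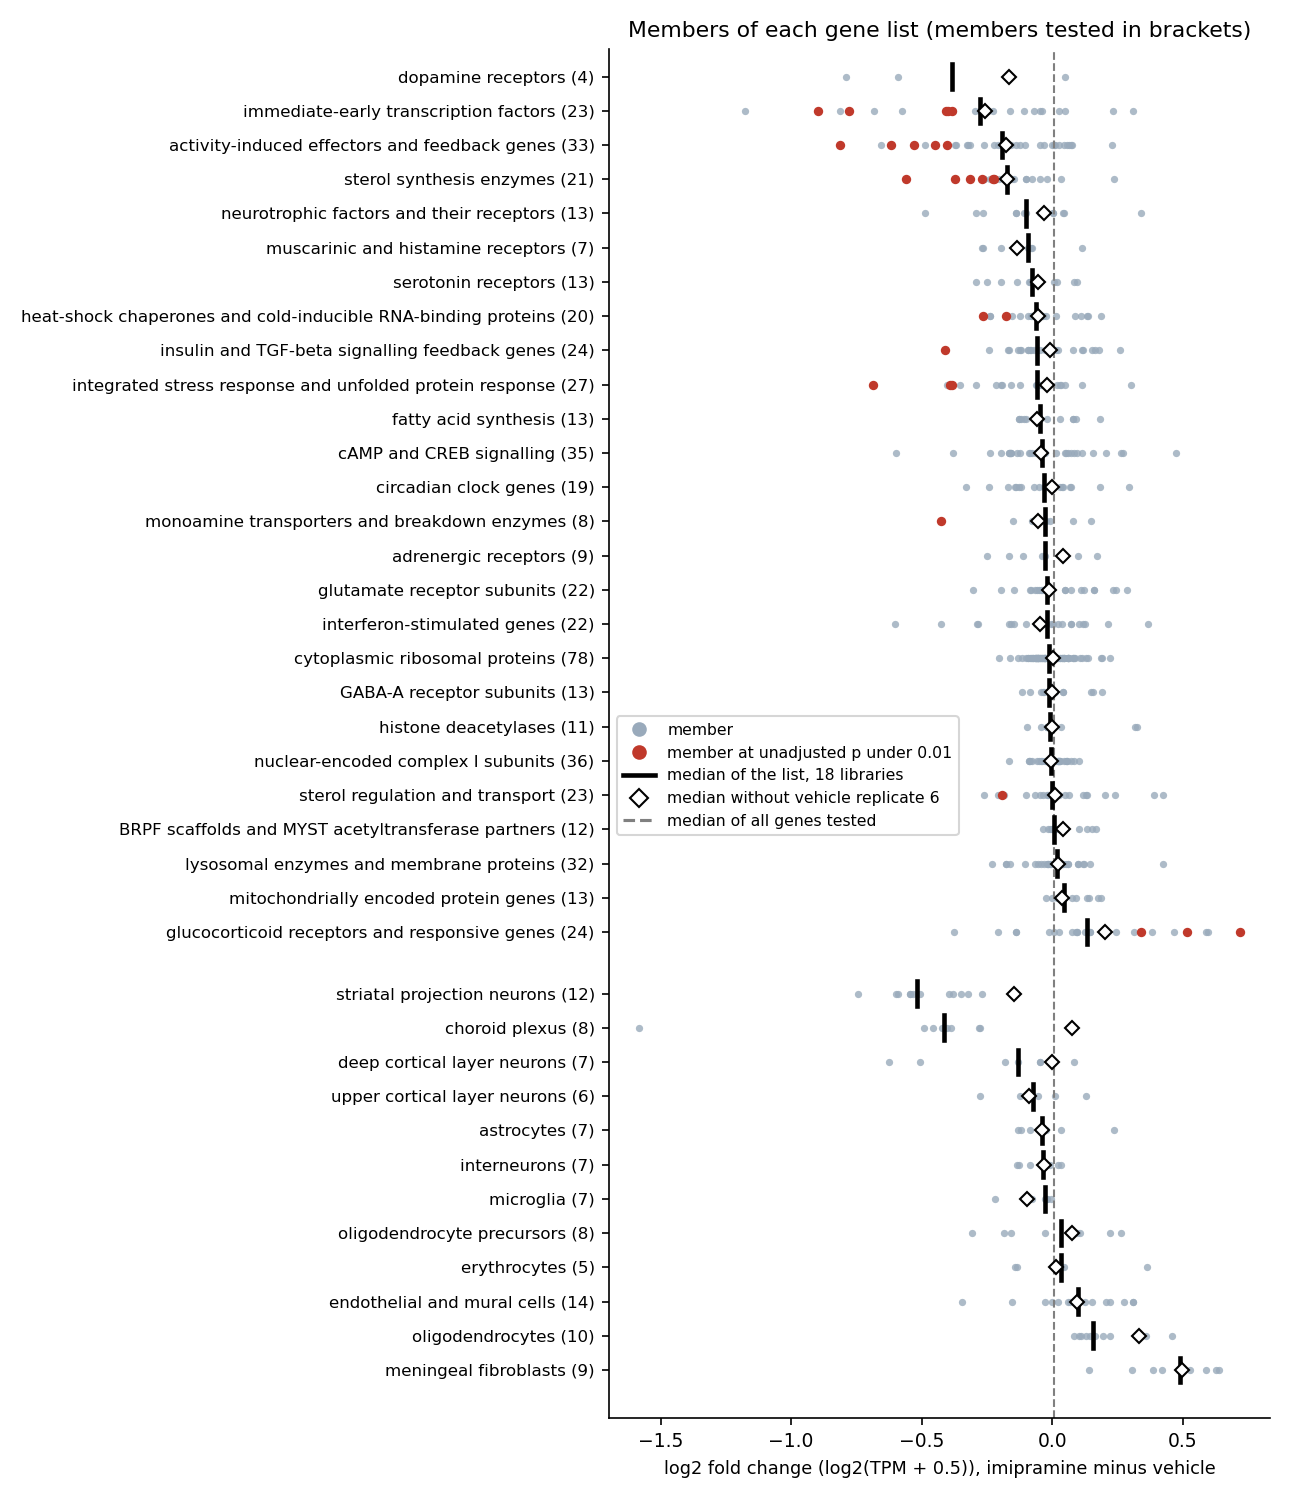
Log2 difference (imipramine minus vehicle, Brd1+/- aCC, on log2(TPM + 0.5)) of every tested member of each gene list, one row a list. Grey points are members, red points those with an unadjusted p under 0.01, black bars the list medians, open diamonds the medians without vehicle replicate 6 and the dashed line the median of all genes tested (0.01); the sterol synthesis and IEG lists sit to the left (medians -0.17, -0.28 and -0.19), and the striatal and choroid lists move towards 0 without that library.

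The same drug comparison in WT mice shares no library with the one in Brd1+/- mice. No gene passed there with adjustment (0 of 25572, limma; 1687, or 6.6%, at an unadjusted p under 0.05 and 404, or 1.58%, at 0.01, of which 110 were higher and 294 lower, 0.43% and 1.15%). At any p, 45.5% of genes lay higher and 54.5% lower with IMN in WT mice. Of the 313 Brd1+/- genes, 78.9% had the same sign in WT mice, against 57.7% of all genes tested. At an unadjusted p under 0.01 in both genotypes there were 44 genes, 14.1% of the 313 and 10.9% of the 404, and all 44 had the same sign, 24 lower and 20 higher with IMN. Across genes the log2 differences correlated with a Pearson r of 0.165 and a Spearman rho of 0.209, as a description over 25572 genes that are not independent replicates. Library composition also differed with IMN in WT mice. All 10 oligodendrocyte markers lay higher there, with a median of 0.61 against 0.16 in Brd1+/- mice. Meningeal fibroblast markers had medians of -0.07 in WT and 0.49 in Brd1+/- mice. The part of composition in the shared signs was not tested.

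The IEG values are set side by side. Npas4 differed by -0.90 in Brd1+/- and -0.98 in WT mice, Egr1 by -0.78 and -0.54, Arc by -0.81 and -0.53, and Nptx2 by -0.62 and -0.71. The 23 factors had medians of -0.28 and -0.36 (19 lower in each genotype), and the 33 effectors -0.19 and -0.21 (23 and 27 lower). Of the genes at the higher end, Sult1a1 differed by 0.72 and 0.58, Ddit4 by 0.52 and 0.47, Galnt15 by 0.70 and 0.58, Acer2 by 0.59 and 0.65 and Slco4a1 by 0.87 and 0.77. The sterol enzymes had a median of -0.17 in Brd1+/- and -0.05 in WT mice (19 and 15 of 21 lower), where Mvd differed by -0.36 (unadjusted p = 0.0013; 12.8 to 22.2 TPM with vehicle, 11.2 to 15.1 with IMN) and Hmgcs1 by -0.14 (unadjusted p = 0.208).

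The difference between the genotypes was tested as an interaction over all 36 libraries, and no gene passed with adjustment (0 of 25572, limma; 140, or 0.547%, at an unadjusted p under 0.01 and 818, or 3.2%, at 0.05). The interaction for Mvd was -0.20 (unadjusted p = 0.122), for Npas4 the unadjusted p was 0.794, and for Hmgcs1 the term was -0.23 with a standard error of 0.141. The largest among the named genes was Mef2c, at 1.22 (unadjusted p = 0.0131), where WT libraries spread from 82.4 to 324 TPM with vehicle and from 58.9 to 312 TPM with IMN. Gm527 (-0.65), Gm8170 (0.50), Slc18a2 and Slc25a35 had unadjusted interaction p of 0.0134, 0.0147, 0.0159 and 0.0273, and all had adjusted p of 1.00 after rounding. Mef2c, Gm527, Gm8170 and Slc18a2 were named by their p in Brd1+/- mice, and those libraries enter this interaction. Slc25a35 was singled out by the study from these data. Their terms are therefore favoured by selection. Over all genes, 0.547% and 3.2% are smaller shares than those levels themselves give.

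**Figure D5:**
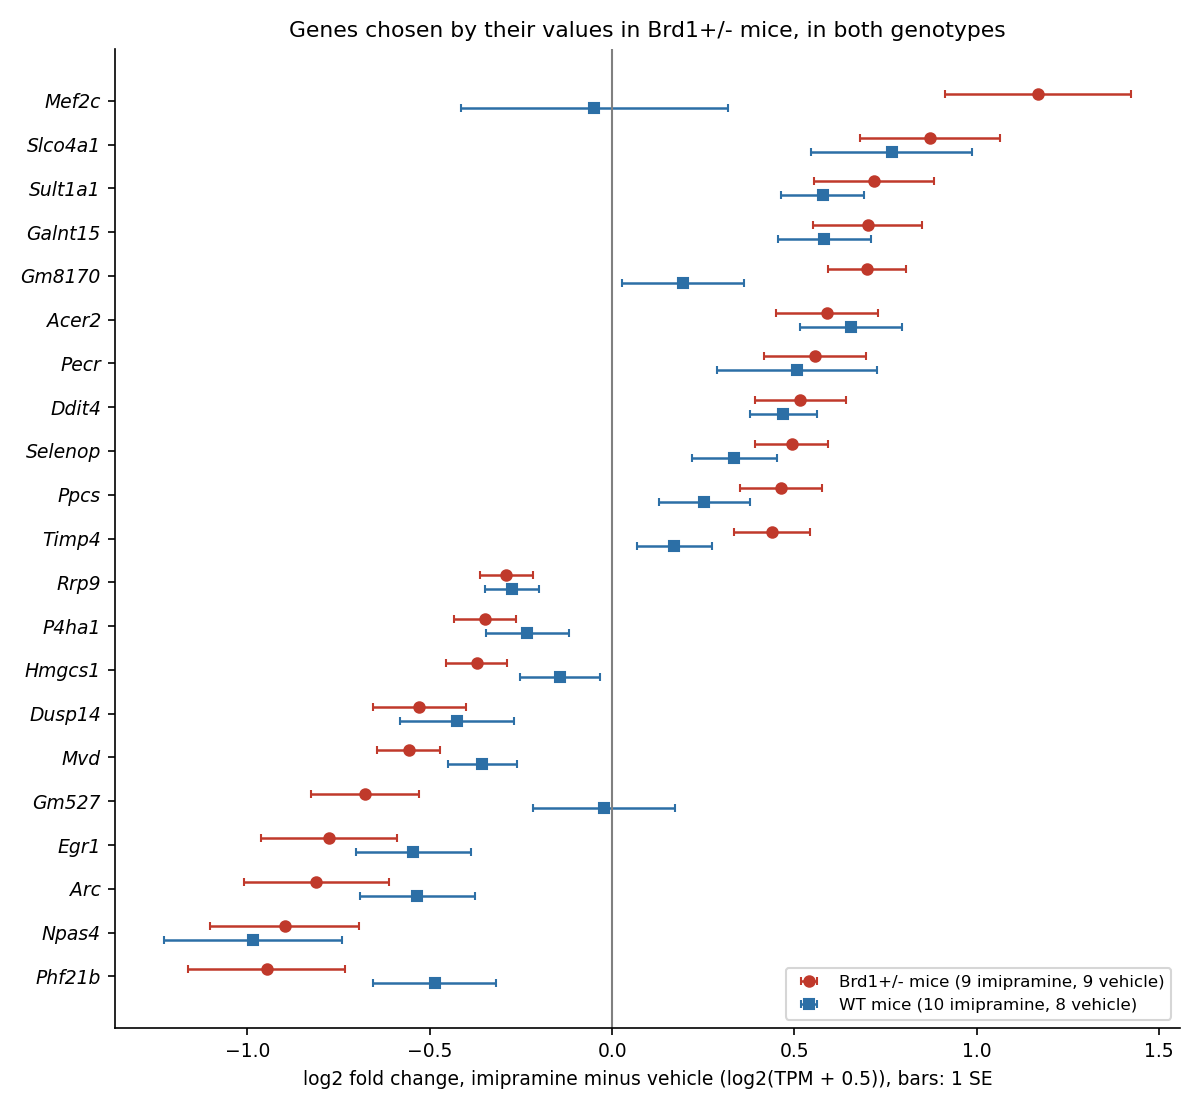
Log2 difference (imipramine minus vehicle) of 21 named genes in Brd1+/- and in WT mice, with bars of 1 standard error from the limma fits. The genes were chosen by their values in Brd1+/- mice. Npas4, Egr1, Arc, Sult1a1 and Ddit4 lie on the same side in both genotypes, whereas Mef2c lies at 1.17 in Brd1+/- and -0.05 in WT mice.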

How the data were processed

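RNA of aCC punches was sequenced by the authors (single-end reads), trimmed with Trimmomatic, checked with FastQC, aligned to GRCm38 with HISAT2 2.1.0 and quantified with StringTie 1.3.4; the deposited table holds TPM per gene and library, and per the labels and file headers no counts, batch or strand setting were given. TPM keep no depth, and a change of some abundant genes shifts all others. The table held 52636 genes, 52403 of which matched a GENCODE symbol; coordinates are GRCm38.

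The test took the 25572 genes that reached 0.1 TPM in 8 or more libraries, of all 36, on log2(TPM + 0.5), a scale that understates changes of low genes, with limma 3.58.1 (R 4.3.3, moderated with a mean trend, two-sided, Benjamini-Hochberg). The main fit held the 18 Brd1+/- libraries without covariates; the interaction held all 36. Fold changes are IMN minus vehicle. On simulated data for this comparison (25572 genes), 84% of genes changed 2-fold and 56% changed 1.5-fold were recovered at adjusted p under 0.05. There were also 13 false calls, and the shares were not split by expression level. The simulated noise was drawn independently for each gene and library, so it held no composition shifts shared by many genes. How far it otherwise matched the variation between real libraries was not tested. In the real data Npas4, with a log2 difference of -0.90, had an adjusted p of 0.488 by limma. The simulated shares therefore cannot show that changes of 1.5-fold to 2-fold were absent among genes that missed adjustment. Tables and figures used Python 3.11.15.

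Members and lists were chosen with earlier results of these data known. Named genes were the 5 genes of the study, those with adjusted p under 0.05, the 10 higher and 10 lower coding genes of smallest p with a mean of at least 1 TPM, and the 4 members of smallest p in each list; other members are given as part of a list, and some items are not reported here. Vehicle replicate 6 was kept and left out in turn. Alternatives were other pseudocounts, filters and scalings, array weights, a replicate block, covariates and leaving out each library. Replicates are separate mice. Promoter sequences are from RefSeq (GRCm38.p6).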

Additional observations from a re-analysis of the deposited data

Results flagged for a closer look

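In 37 of 324 groups of 9 libraries a single value lay far from the others: its gap to the next library, divided by the range of the group, was above Dixon's critical value of 0.493. For independent groups of normal values, chance alone gives about 1 such group in 20. That rate does not apply to the 37 groups, because scores and genes overlap and many genes were chosen by their p. Vehicle replicate 6 was also known beforehand for its striatal and choroid genes. The gaps are on the log2(TPM + 0.5) scale.

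Vehicle replicate 6 was highest for the striatal marker score (gap ratio 0.809), the choroid plexus score (0.903), Drd2 (0.714), Ppp1r1b, a signalling protein of striatal neurons (0.702), Htr1d (0.542), and the scores of dopamine receptors (0.554), neurotrophic factors (0.581) and the study's genes (0.577).

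Vehicle replicate 7 was lowest for Mef2c (0.597), Gfra2 (0.582), Kat6b (0.535), Gabrb2 (0.529), mt-Nd4l (0.608), mt-Nd5 (0.622) and the scores of muscarinic and histamine receptors (0.499) and GABA-A receptors (0.537). Of the other vehicle libraries, replicate 5 was highest for Adra1b (0.578) and Rorb (0.629), replicate 9 for Grik1 (0.539) and Rps15a (0.516) and replicate 2 for the Y-linked score (0.531), which summed to at most 0.0855 TPM in any library, and replicate 1 was lowest for Chrm2 (0.588).

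IMN replicate 6, the library with the highest oligodendrocyte marker sum, was lowest for Hrh1 (0.584), Skil (0.538), Grin2b (0.584) and the scores of glutamate receptors (0.549) and striatal markers (0.509), and highest for Chrm2 (0.511) and Grik1 (0.498). Among the other IMN libraries, replicate 7 was highest for Chrm4 (0.587) and Hsph1 (0.558), replicate 8 for mt-Nd6 (0.512), replicate 1 for the choroid score (0.605), replicate 5 for the sterol synthesis (0.527) and erythrocyte (0.506) scores, and replicate 9 was lowest for Pik3r1 (0.548).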

How the results depend on the processing

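The 2 calls at adjusted p under 0.05 rested on the settings. No gene passed with a pseudocount of 0.1 or 1, without the filter, with a mean of at least 1 TPM, after quantile normalization, with a replicate block or with the meningeal fibroblast covariate (chosen after seeing the data); 1 passed with median-ratio scaling, array weights, all 36 libraries in 1 fit, or striatal and oligodendrocyte covariates, and 2 passed after rescaling without mitochondrial genes. Leaving out each library in turn gave 0 to 1 calls: Gm8170 alone without vehicle replicate 6, Mvd alone without vehicle replicate 1, and none otherwise. The adjusted p of Gm8170 ran from 0.0349 to 0.731 over the 12 alternatives. The count of genes at an unadjusted p under 0.01, 313 as reported, was 228 to 439 under the alternatives and 241 to 384 when a library was left out; the split of higher and lower genes was 151 and 172 after quantile normalization, 219 and 122 after rescaling without mitochondrial genes, 300 and 139 with striatal and oligodendrocyte covariates and 169 and 200 with the meningeal covariate. The interaction gave no adjusted call in the 9 alternatives run for it, and its count at an unadjusted p under 0.01 went from 140 to 242 with array weights and 70.0 with a mean of at least 1 TPM.

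Counts of list members at an unadjusted p under 0.01 moved by over 1.5 times when some libraries were left out or some settings changed. The 6 sterol enzymes became 3 without IMN replicate 4 and 3 with the replicate block. The 5 IEG factors became 3 without vehicle replicates 3, 4 or 9 or IMN replicates 1 or 2, and the 5 effectors became 3 without vehicle replicates 4, 8 or 9 and 8 without vehicle replicate 5 or IMN replicates 3 or 9. The 3 unfolded protein response genes became 1 without vehicle replicates 3, 4, 6, 7 or 8 or IMN replicates 1, 2, 4 or 6, 6 without vehicle replicate 1 or IMN replicate 3, 8 without IMN replicate 7 and 9 with the meningeal covariate. The 3 glucocorticoid genes became 6 without vehicle replicate 6. With striatal and oligodendrocyte covariates there were 6 glucocorticoid genes, 3 IEG factors and 1 unfolded protein response gene. The effectors became 9 with the meningeal covariate, and the unfolded protein response genes 6 with all 36 libraries in 1 fit.

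Among the named genes, direction turned in 8. Brd1 went to -0.00488 after quantile normalization, -0.029 with array weights and -0.013 with the meningeal covariate, and ran from -0.027 to 0.046 when a library was left out. With striatal and oligodendrocyte covariates Htr1d came to 0.020, Htr1b to 0.092 and Drd4 to -0.025; with the meningeal covariate Adra1b came to 0.012 and Drd4 to -0.026; Hdac3 came to 0.000102 after quantile normalization. Leaving out a library gave ranges of -0.43 to 0.029 for Hrh1, -0.025 to 0.13 for Drd4 and -0.0082 to 0.20 for Slc29a4. The cause was not tested.

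Equal replicate numbers did not pair the libraries (correlations of -0.083 to 0.053), and a replicate block gave 0 adjusted calls and 277 genes at an unadjusted p under 0.01 (149 higher, 128 lower). TPM give no depth, so counting error is not in any interval, and low genes such as Gm8170 may rest on few reads. The labels give no batch. Nearly all gene-level differences named here missed adjustment with 9 mice a group.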

Other observations

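Of the 44 genes at an unadjusted p under 0.01 in both genotypes (limma, independent libraries), several were named nowhere above; they are given for their values, and were picked after these were seen. Among those higher with IMN, Etnppl, which breaks down phosphoethanolamine and is an astrocyte gene of cortex, had medians of 11.6 TPM with vehicle and 15.6 TPM with IMN in Brd1+/- mice and of 10.6 and 15.1 TPM in WT mice (log2 differences 0.56 and 0.41). Xdh, xanthine oxidoreductase of purine breakdown, had medians of 2.30 and 3.80 TPM in Brd1+/- and 2.35 and 4.02 TPM in WT mice (0.73 and 0.64). Ch25h, which makes 25-hydroxycholesterol, a repressor of sterol synthesis, was low but went from medians of 0.474 to 1.14 TPM in Brd1+/- and 0.526 to 1.21 TPM in WT mice (0.84 and 0.79), with overlapping ranges. Pnpla8, a calcium-independent phospholipase, differed by 0.38 and 0.40, and F3, tissue factor, by 0.31 and 0.28.

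Among those lower, Dnajb5, a heat-shock co-chaperone, had medians of 275 and 214 TPM in Brd1+/- and 309 and 237 TPM in WT mice (-0.34 and -0.32). The transcription factors Arid3b (-0.42 and -0.49) and Mycn (-0.46 and -0.45) and the cell cycle regulators Sertad1 (-0.44 and -0.55) and Ccnf (-0.51 and -0.54) also lay lower in both genotypes. All of these missed adjustment in each comparison.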
